A study of Mus musculus with 3 samples.

Results

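The transcripts of the 4 enzymes that turn prohormones into hormones, *Pcsk1*, *Pcsk2*, *Cpe* and *Pam*, were followed in the beta, alpha and delta cells of mouse islets of Langerhans with and without the transcription factor Taf4. They were chosen by name, and they are 4 of the 17226 genes listed in at least 1 of the 3 single-cell RNA-seq libraries. All 4 are listed in each library. Unique molecular identifiers (UMIs), each standing for 1 captured RNA molecule, were summed per gene over the cells of a class and divided by all UMIs of that class, which gives UMIs per 1000000 UMIs of the class (CPM, counts per 1000000).

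Peptide hormones are made as longer precursors that are cut inside secretory granules. The convertases PC1/3 (*Pcsk1*) and PC2 (*Pcsk2*) cut the precursor after pairs of basic residues, carboxypeptidase E (*Cpe*) trims the basic residues left at the new ends, and peptidylglycine alpha-amidating monooxygenase (*Pam*) turns a terminal glycine into an amide. Beta cells use both convertases to make insulin, whereas alpha cells make glucagon from the same kind of step with PC2, and PC1/3 would cut proglucagon to GLP-1 instead. Amylin, from *Iapp*, is a beta-cell hormone that PAM amidates.

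The WT library came from 300 islets of 1 wild-type mouse, labelled male and C57/Bl6; the study describes its Taf4+/+ controls as carrying the driver and given tamoxifen, while the labels and the single-cell methods call this animal wild type without naming either. The other 2 libraries, of the same labelled sex and strain, each came from 300 islets pooled from 2 Ins1::Cre-ERT2::Taf4 lox/lox mice. Per the methods, mice were given tamoxifen on 3 consecutive days at 11 to 13 weeks of age, and the mutant islets were taken 1 week or 5 weeks after inactivation. The driver acts in insulin-expressing cells, so alpha and delta cells of a mutant islet are not its target. The paper reports, by lineage tracing at a later time, *Gcg*-expressing cells in mutant islets that came from beta cells. The alpha class of a mutant library may therefore hold cells in which the driver acted, which was not tested. With 1 library per condition there is no replicate check and no test between conditions was made: genotype, animal, sex and library cannot be told apart. Intervals in parentheses hold 95% and cover counting error only.

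Beta cells were those with at least 20% of their UMIs from *Ins2* and under 3% from *Gcg*, alpha cells those with at least 15% from *Gcg* and under 10% from *Ins2*, and delta cells those with at least 5% from *Sst* and under 5% from *Gcg*. In the 1-week library, limits of 5% for *Ins2*, 8% for *Gcg* and 1.5% for *Sst* were applied to barcodes of 5000 or more UMIs. This gave 8271 beta, 2772 alpha and 621 delta cells in WT, 562, 172 and 38 at 1 week, and 5685, 3011 and 1342 at 5 weeks. At 5 weeks 128 cells met both the beta and the delta limits and were counted in both, against 2 in WT and 1 at 1 week. In each library 10 of 11 beta markers, 11 of 11 alpha markers and 8 of 8 delta markers had UMIs in the class they mark. The one without was *Ero1b*, a name that no library lists. This does not set the classes apart, and the lists include *Ins2*, *Gcg* and *Sst*, which define them. In WT 10 of 11 beta markers also had UMIs in alpha and in delta cells, and 11 of 11 alpha markers in beta cells. At 5 weeks 8 of 8 delta markers also had UMIs in beta and in alpha cells. The delta class was not pure by hormone: it also held the PP-cell hormones *Ppy* and *Pyy*, at 61452 CPM together in WT, 70015 at 1 week and 61616 at 5 weeks.

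Several facts of the libraries bear on every value below. *Taf4*, the targeted gene (chr2:179912146-179976646), was at 4.68 CPM (3.68 to 5.86) in WT beta cells, 7.53 (6.21 to 9.06) after 1 week and 3.54 (2.88 to 4.31) at 5 weeks. These 3′ tags may lie outside the deleted part, so they check nothing. *Xist* was at 891 CPM in the WT library and under 1 CPM in both mutant libraries, while Y-linked *Ddx3y* had 0 UMIs in WT, which allows up to 0.154 CPM, and 64.3 and 34.2 CPM at 1 and 5 weeks, so the WT library goes against its male label. The median beta cell held 1656 UMIs in WT, 24755 at 1 week and 3868 at 5 weeks. Hormone transcripts took 68.0%, 42.8% and 66.3% of beta-cell UMIs in that order, so ratios are also given on CPM without the 7 hormone genes *Ins1*, *Ins2*, *Gcg*, *Sst*, *Iapp*, *Ppy* and *Pyy*. Acinar transcripts were summed at 4971 CPM in WT beta cells, 15.9 at 1 week and 573 at 5 weeks (10 of 10 listed genes with UMIs in each), and their part in the results was not tested. Between 2 and 33 cell barcodes were shared by any 2 libraries.

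**Figure D1:**
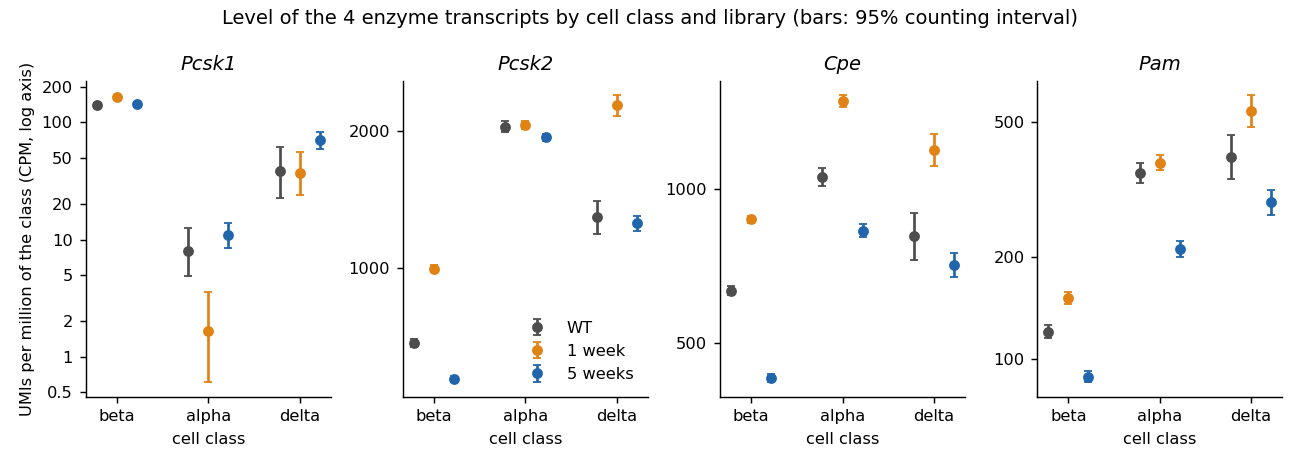
Level of each enzyme transcript (CPM, log axis) in beta, alpha and delta cells of the WT, 1-week and 5-week libraries; bars are 95% exact Poisson intervals. *Pcsk1* is highest in beta cells (139 to 163 CPM) and lowest in alpha cells (1.65 to 10.9 CPM), while *Pcsk2*, *Cpe* and *Pam* are lowest in beta cells in all 3 libraries.

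*Pcsk1* (chr13:75089420-75134861, GRCm38.p6) marked beta cells. Its level there was 139 CPM (133 to 145) in WT, 163 (157 to 170) after 1 week and 144 (140 to 149) at 5 weeks. In alpha cells it was at 8.06 CPM (4.85 to 12.6, 19 UMIs) in WT, 1.65 (0.60 to 3.58, 6 UMIs) after 1 week and 10.9 (8.40 to 13.9, 65 UMIs) at 5 weeks. In delta cells it was at 38.5 CPM (22.5 to 61.7, 17 UMIs), 37.2 (23.8 to 55.4, 24 UMIs) and 70.7 (59.4 to 83.5, 138 UMIs) in the same order. The order beta, delta, alpha held in all 3 libraries, with intervals that did not overlap between neighbouring classes. In WT the beta level was 17.3-fold the alpha level and 3.61-fold the delta level.

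*Pcsk2* (chr2:143546133-143816284) had the opposite order in WT and at 5 weeks. It was at 682 CPM (669 to 695) in WT beta cells, 995 (979 to 1011) after 1 week and 567 (558 to 576) at 5 weeks. Alpha cells held 2044 CPM (1987 to 2103) in WT, 2060.2 (2014 to 2107) after 1 week and 1935 (1899 to 1970.1) at 5 weeks, and delta cells 1290.1 (1186 to 1401), 2274 (2159 to 2394) and 1251 (1202 to 1301). Alpha cells were highest in WT and at 5 weeks, delta cells at 1 week, and beta cells lowest in each library. The alpha level was 3.00-fold the beta level in WT, 2.07-fold at 1 week and 3.41-fold at 5 weeks.

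*Cpe* (chr8:64592542-64693109), whose product acts after both convertases, was the most even of the 4. It was at 633 CPM (621 to 646), 873 (859 to 889) and 426 (419 to 434) in beta cells of WT, 1 week and 5 weeks. The alpha levels were 1057 (1015 to 1099), 1487 (1447 to 1527) and 830.2 (807 to 854), and the delta levels 809 (728 to 898), 1194 (1111 to 1281) and 711 (674 to 749). The class order alpha, delta, beta held in each library, and no class was 2-fold apart from beta cells.

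*Pam* (chr1:97821091-98095853) was lowest in beta cells, at 121 CPM (115 to 126) in WT, 152 (146 to 158) after 1 week and 88.9 (85.5 to 92.5) at 5 weeks. It was at 354 (331 to 379), 379 (359 to 400) and 211 (199 to 223) in alpha cells and at 395 (338 to 458), 538 (483 to 598) and 289 (266 to 314) in delta cells. Delta was above alpha at 1 and 5 weeks, while in WT the intervals of alpha and delta cells overlapped. The delta level was 3.27-fold, 3.55-fold and 3.25-fold the beta level.

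In WT 3 of 4 enzymes were 2-fold or more apart between alpha and beta cells, *Pcsk2* and *Pam* higher and *Pcsk1* lower, where 25.1% of the 6834 genes with at least 100 UMIs were (20.6% higher, 4.48% lower). The same 3 passed at 1 week (16.2% of 8811 genes, 8.16% higher and 8.07% lower) and at 5 weeks (23.2% of 8965, 20.1% higher and 3.17% lower). Between delta and beta cells 2 of 4 passed in WT, *Pam* and *Pcsk1*, against 48.4% of all genes (46.6% higher, 1.77% lower). *Pcsk2* joined them at 1 week (20.7% of genes, 17.5% higher and 3.26% lower) and at 5 weeks (47.6%, 46.3% higher and 1.25% lower), making 3 of 4. The higher values depend on how much hormone RNA shares the denominator. Without hormone UMIs the split of all genes between alpha and beta cells in WT turned from mostly higher to 2.78% higher and 15.8% lower. On that scale the log2 ratio of alpha over beta in WT was −4.98 (−5.72 to −4.34) for *Pcsk1*, 0.71 (0.66 to 0.76) for *Pcsk2*, 0.68 (0.56 to 0.80) for *Pam* and −0.13 (−0.20 to −0.07) for *Cpe*. *Pcsk1* stayed far below beta cells and *Pcsk2* and *Pam* above them, but *Cpe* changed side. For delta over beta cells without hormones, *Pcsk2* was at −0.15 in WT, 0.69 at 1 week and 0.18 at 5 weeks, and *Cpe* at −0.71, −0.05 and −0.22, so only *Pam* (0.64, 1.32 and 0.75) was above beta cells on both scales in all 3 libraries.

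The DNA before the starts of the 2 convertase genes is shown because, in CPM over all UMIs, *Pcsk1* was highest and *Pcsk2* lowest in beta cells. Both are the 200 bases from 250 to 51 before a RefSeq transcript start on the plus strand of GRCm38.p6, chr13:75089607-75089806 for *Pcsk1* and chr2:143545883-143546082 for *Pcsk2*, with the full cyclic AMP response element TGACGTCA in capitals in the former and the GC box GGGCGG in the latter. The *Pcsk1* window lies inside the annotated span of the gene given above, so its start is not the first base of that span.
*Pcsk1*: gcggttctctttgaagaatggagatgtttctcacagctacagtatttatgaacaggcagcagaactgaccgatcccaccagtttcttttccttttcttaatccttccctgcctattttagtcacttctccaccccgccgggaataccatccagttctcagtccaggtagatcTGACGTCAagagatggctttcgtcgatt
*Pcsk2*: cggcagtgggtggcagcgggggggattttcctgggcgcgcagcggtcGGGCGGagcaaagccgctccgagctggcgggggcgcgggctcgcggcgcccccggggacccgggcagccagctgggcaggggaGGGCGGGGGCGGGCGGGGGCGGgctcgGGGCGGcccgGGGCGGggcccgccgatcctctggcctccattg
Within 250 bases before the start, *Pcsk1* held TGACGTCA once, beginning 78 bases before the start, which 1.62% of 27025 gene promoters do on either strand. The shorter TGACG, part of that element, was in the *Pcsk1* window at 3 places on either strand, 2 of them within TGACGTCA, in that of *Pcsk2* at 1 place and in that of *Pam* at none, and 17.9% of promoters held it. The *Pcsk1* window was 46.8% G or C with no GGGCGG. The *Pcsk2* window held GGGCGG 7 times, some overlapping, no TGACGTCA, and 82.4% G or C, above 99.4% of promoters, while that of *Pam* held GGGCGG at 2 places on the other strand and was 75.6% G or C. GGGCGG was in 32.9% of promoters on either strand, and TATAAA, in 12.97% of them, was in none of the 3, nor was CACGTG, in 6.05% of promoters. *Cpe* had no entry in the table used. These are matches of letters, not measured binding sites.

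The split between the convertases does not depend on the denominator of CPM, since both counts come from the same cells. It can still differ with the hormone make-up of the cells in a class. *Pcsk1* gave 17.0% (16.3 to 17.6) of the *Pcsk1* and *Pcsk2* UMIs of beta cells in WT, 14.1% (13.6 to 14.6) after 1 week and 20.3% (19.7 to 20.8) at 5 weeks. The beta-cell share was lower at 1 week and higher at 5 weeks than in WT, with intervals that did not overlap. In beta cells of 20% to 30% *Ins2*, however, it was 12.8% at 5 weeks and 16.3% in WT, with intervals that overlapped. At 50% to 60% *Ins2* it was 20.1% and 16.1%. In alpha cells the share was 0.393% (0.237 to 0.613), 0.0798% (0.0293 to 0.174) and 0.560% (0.432 to 0.713). The order of WT and 5 weeks in alpha cells turned with depth: the shares were 0.690% and 0.539% in cells of 1000 to 5000 UMIs, and 0.819% and 0.496% in cells thinned to 1000 UMIs, with 0.270% at 1 week. In delta cells it was 2.90% (1.70 to 4.60), 1.61% (1.03 to 2.39) and 5.35% (4.51 to 6.29). The 5-week delta share was 4.33% (3.51 to 5.27) when the 128 cells that also met the beta limits were left out. In delta cells of 1000 to 5000 UMIs the shares were 4.76% in WT, from 67 cells, and 5.40% at 5 weeks.

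**Figure D2:**
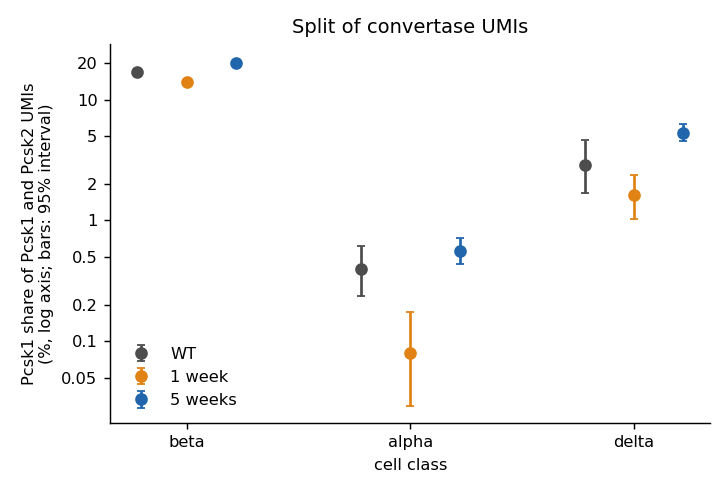
Share of *Pcsk1* among *Pcsk1* and *Pcsk2* UMIs (percent, log axis) by cell class and library; bars are 95% exact binomial intervals. Beta cells sit between 14.1% and 20.3%, delta cells between 1.61% and 5.35% and alpha cells between 0.0798% and 0.560%.

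The low *Pcsk1* of alpha and delta cells was set beside the insulin transcripts found there. In alpha cells *Pcsk1* was at 5.79% (3.48 to 9.06) of the beta-cell level in WT, where *Ins2* was at 6.14% and *Ins1* at 6.47%. At 1 week it was at 1.01% (0.37 to 2.20), with *Ins2* at 1.14% and *Ins1* at 1.09%. At 5 weeks it was at 7.55% (5.81 to 9.64), with *Ins2* at 5.33% and *Ins1* at 4.99%. The alpha-cell interval of *Pcsk1* held both insulin values in WT and at 1 week, on 19 and 6 UMIs, and lay above them at 5 weeks. In delta cells *Pcsk1* was at 27.7% (16.1 to 44.4), 22.8% (14.6 to 34.0) and 49.0% (41.0 to 58.1) of the beta level, against 9.82%, 2.34% and 20.3% for *Ins2*. Delta-cell *Pcsk1* lay above both insulin transcripts in all 3 libraries. Taking off the beta-cell profile scaled to all *Ins2* left −0.49 CPM of *Pcsk1* (−3.70 to 4.04) in WT alpha cells, −0.21 (−1.25 to 1.73) after 1 week and 3.20 (0.72 to 6.19) at 5 weeks. It left 24.9 CPM (8.79 to 48.0), 33.4 (20.02 to 51.5) and 41.4 (30.1 to 54.2) in delta cells, and these 3 intervals overlapped. This subtraction was chosen after the values were seen. Cells with hormones of more than 1 class were removed by the authors from WT only.

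**Figure D3:**
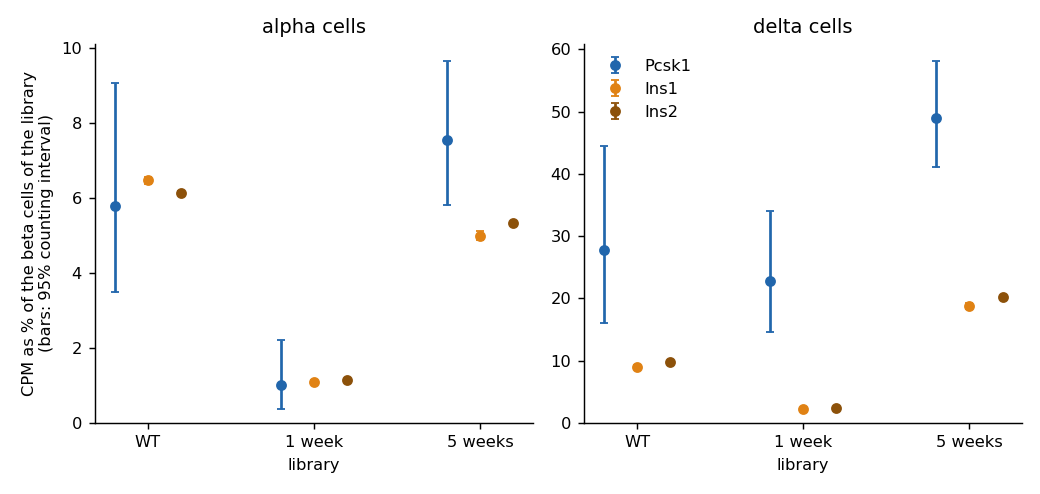
CPM of *Pcsk1*, *Ins1* and *Ins2* in alpha cells (left) and delta cells (right) as a percent of their CPM in the beta cells of the same library; bars are 95% counting intervals. In alpha cells *Pcsk1* (1.01% to 7.55%) sits near the insulin transcripts, and in delta cells (22.8% to 49.0%) above them.

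Cells holding markers of other types were set beside the islet classes. The 218 such endothelial cells at 5 weeks (median 1244 UMIs) held *Pcsk1* at 16.4 CPM (5.34 to 38.4), *Pcsk2* at 184 (139 to 239), *Cpe* at 131 (93.9 to 179) and *Pam* at 82.2 (53.2 to 121). The 5-week alpha level of *Pcsk1* was within that interval, and *Pcsk2* and *Cpe* stood above theirs in all 3 classes. *Pam* in beta cells, 88.9 CPM, lay inside the endothelial interval, and whether endothelial cells make *Pam* of their own was not tested. The 232 acinar cells of WT (median 1062 UMIs) held more, with *Pcsk1* at 67.1 CPM (43.4 to 99.1), *Pcsk2* at 564 (490.0 to 645), *Cpe* at 454 (388 to 527) and *Pam* at 129 (95.001 to 171). They also held *Ins2* at 156801 CPM, against 52002 in the endothelial cells. The WT alpha and delta levels of *Pcsk1* were below that acinar level, the delta interval overlapping it, and the WT beta level of *Pam* was inside the acinar interval. Unlike the endothelial cells, the acinar cells could also meet the limits of an islet class, and they held *Gcg* at 49104 CPM and *Sst* at 6509. They are a mixed reference, so whether *Pcsk1* in WT alpha and delta cells was above background cannot be read from them.

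Next, beta cells at 5 weeks were set against WT, to ask what became of the processing machinery after Taf4 was lost. The ratio of *Pcsk1* was near 0, and the other 3 enzymes were lower by less than 2-fold. The log2 ratio was 0.05 (−0.02 to 0.13) for *Pcsk1*, −0.27 (−0.30 to −0.23) for *Pcsk2*, −0.57 (−0.61 to −0.53) for *Cpe* and −0.44 (−0.53 to −0.35) for *Pam*. None of the 4 passed 2-fold, where 10.6% of 9207 genes did (6.41% higher, 4.18% lower) around a median of 0.18. *Cpe* was 1.49-fold lower than in WT, at percentile 10.5 of all genes, *Pam* at percentile 14.3 and *Pcsk2* at 20.8. Without hormone UMIs the ratios were −0.03, −0.34, −0.65 and −0.52 in the same order. In beta cells of 1000 to 5000 UMIs in both libraries they were 0.09, −0.28, −0.62 and −0.29.

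Alpha cells at 5 weeks kept *Pcsk2* near its WT level, with a log2 ratio of −0.08 (−0.13 to −0.03), the sign of which turned to 0.06 without hormones. *Pam* was lower by 0.75 (log2 −0.75, −0.88 to −0.62), at percentile 3.25 of 5482 genes, and *Cpe* was at −0.35 (−0.42 to −0.28). *Pcsk1* was at 0.43, with an interval that held 0 (−0.32 to 1.25), and at −0.38 in cells of 1000 to 5000 UMIs. Its 84 UMIs over both libraries were under the minimum of 100, and none of the other 3 enzymes passed 2-fold, against 4.47% of all genes (3.05% higher, 1.42% lower, or 5.07% and 1.08% without hormones). Alpha cells are not the target of the driver, though this class may hold cells that came from beta cells. The *Pam* ratio in alpha cells was further from 0 than that in beta cells, with intervals that did not overlap. Without hormones they were −0.61 (−0.74 to −0.48) in alpha and −0.52 (−0.60 to −0.43) in beta cells, with intervals that overlapped, and the difference was not tested.

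Delta cells at 5 weeks had *Pcsk2* at −0.04 (−0.18 to 0.09), *Cpe* at −0.19 (−0.36 to −0.02) and *Pam* at −0.45 (−0.69 to −0.19). *Pcsk1* was higher, with a log2 ratio of 0.87 (0.14 to 1.70) at percentile 94.0, from 17 UMIs in WT and 138 at 5 weeks. Here too none of the 4 passed 2-fold, against 5.38% of 2638 genes (3.71% higher, 1.67% lower). *Ins2* was also higher in delta cells: it was at 9.82% of the beta level in WT delta cells and at 20.3% at 5 weeks. With the beta profile taken off, totals included, the *Pcsk1* ratio was 0.91. It was 0.24 in cells of 1000 to 5000 UMIs, which kept 67 of the 621 WT delta cells, and these were the lowest and highest values over the settings tried.

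Across the 3 classes *Pam* and *Cpe* were on the lower side at 5 weeks, with all 6 ratios below 0 on both scales. The interval of *Cpe* in delta cells without hormones held 0, however (−0.15, −0.32 to 0.02). *Pcsk2* was below 0 in all 3 classes but above it in alpha cells without hormones.

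**Figure D4:**
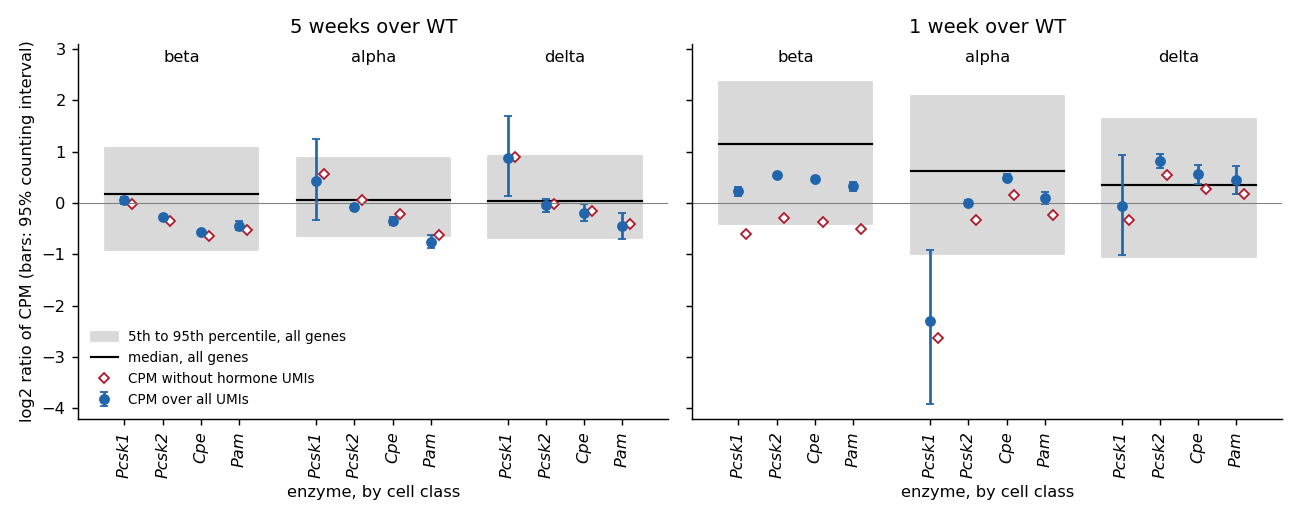
Log2 ratio of CPM over WT for the 4 enzymes in each class at 5 weeks (left) and 1 week (right). Filled points are CPM over all UMIs with 95% counting intervals, open diamonds CPM without hormone UMIs, the grey band the 5th to 95th percentile of all genes tested and the black line their median (1.15 in beta cells at 1 week). At 5 weeks *Cpe* and *Pam* sit below 0 in each class, and at 1 week the 4 beta-cell points change side between the scales.

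The comparison of 1 week with WT uses the same WT library and is the less firm of the 2. Hormones took a smaller part of the UMIs at 1 week, and its classes were cut by lower limits on barcodes of 5000 or more UMIs. The limits were 5% against 20% for *Ins2*, 8% against 15% for *Gcg* and 1.5% against 5% for *Sst*. The 204 beta cells at 5% to 20% *Ins2* held 16.2% hormone UMIs. The stricter limits also differed, at 10% against 30% for *Ins2*, so no setting compared 1 week with WT under the same limits. In beta cells all 4 ratios were above 0, at 0.23 (0.15 to 0.31) for *Pcsk1*, 0.55 (0.51 to 0.58) for *Pcsk2*, 0.46 (0.43 to 0.50) for *Cpe* and 0.33 (0.24 to 0.42) for *Pam*. The median gene, however, stood at 1.15, and 60.1% of 9233 genes passed 2-fold (57.6% higher, 2.49% lower), none of the 4 enzymes among them. Without hormones that split was 16.8% higher and 7.31% lower around a median of 0.31, and the enzymes were at −0.61, −0.29, −0.37 and −0.51. Relative to the median gene they were at −0.92, −0.61, −0.69 and −0.82. The direction in beta cells at 1 week was therefore set by the scale.

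In alpha cells at 1 week *Pcsk2* was at 0.01 (−0.04 to 0.06), *Pam* at 0.10 (−0.03 to 0.22) and *Cpe* at 0.49 (0.42 to 0.56). None of these 3 passed 2-fold, against 37.3% of 5226 genes (32.4% higher, 4.88% lower, or 19.9% and 8.36% without hormones). *Pcsk1* was at −2.29 (−3.90 to −0.91), but its 6 UMIs at 1 week and 19 in WT, 25 together, were under the minimum of 100, and *Ins2* in alpha cells stood at 1.14% and 6.14% of the beta level in the same libraries. In the 38 delta cells *Pcsk2* was at 0.82 (0.68 to 0.96), *Cpe* at 0.56 (0.38 to 0.75), *Pam* at 0.45 (0.18 to 0.72) and *Pcsk1* at −0.05 (−1.01 to 0.94). *Pcsk1*, with 41 UMIs over both libraries, was under the minimum, and none of the other 3 passed, against 26.2% of 1371 genes (20.9% higher, 5.25% lower, or 11.3% and 7.73% without hormones). Without hormones the delta ratios were 0.54 for *Pcsk2*, 0.28 for *Cpe* and 0.17 for *Pam*, so *Pcsk2* was higher on both scales.

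Set against the substrate, the beta-cell enzymes kept the order of the libraries that their CPM had. Per 1000 *Ins1* and *Ins2* UMIs, *Pcsk1* had 0.235 UMIs (0.226 to 0.245) in WT, 0.414 (0.398 to 0.431) after 1 week and 0.242 (0.235 to 0.250) at 5 weeks. *Pcsk2* had 1.15, 2.52 and 0.952, *Cpe* 1.07, 2.22 and 0.716, and *Pam* 0.204, 0.385 and 0.149. All 4 were highest per insulin UMI at 1 week, and at 5 weeks *Pcsk1* was close to WT while the others were below it. The beta-cell limit for *Ins2*, part of that denominator, was 5% at 1 week and 20% in the other libraries. Of the 562 beta cells at 1 week, 204 held 5% to 20% *Ins2*, a range that the WT limit leaves out. How much of the higher 1-week values came from the lower limit was not tested. *Ins1* itself was at 153523, 28371 and 22438 CPM in beta cells. In alpha cells *Pcsk2* had 5.99 UMIs (5.83 to 6.17) per 1000 *Gcg* UMIs in WT, 8.51 (8.32 to 8.71) after 1 week and 4.90 (4.81 to 4.99) at 5 weeks, with *Pam* at 1.04, 1.57 and 0.534. The alpha-cell limit for *Gcg* was likewise lower at 1 week, 8% against 15%, and its part in these values was not tested.

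The share of cells with a UMI tracks depth, so cells were also thinned to 1000 UMIs, leaving out shallower ones. *Pcsk1* was seen in 22.7% of WT beta cells, 87.2% at 1 week and 46.1% at 5 weeks, and after thinning in 12.8% (12.1 to 13.6), 14.9% (12.1 to 18.2) and 13.4% (12.5 to 14.3). The intervals of the 3 thinned *Pcsk1* shares overlapped. *Cpe* was seen after thinning in 44.3% (43.2 to 45.4), 57.1% (52.9 to 61.2) and 33.5% (32.3 to 34.8) of beta cells, in the order of its CPM. Thinning left out 502 WT beta cells and 2153 of the 2772 WT alpha cells. In thinned beta cells the variance of the UMIs over their mean was between 1.01 and 1.26 for each enzyme and library, where 1 is expected of counting alone.

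At 5 weeks the convertase split of cells at or over the *Ins2* limit differed with their *Gcg*, a hormone that also sets the class limits. With cells of 20% or more *Ins2* ordered by *Gcg*, those under 0.5% *Gcg* (5447 cells) held *Pcsk1* at 145 CPM (140 to 149) and *Pcsk2* at 558 (549 to 567). At 3% to 8% *Gcg* (197 cells, outside the beta limits) they were at 130 (110.4 to 151) and 845 (795 to 898), and at 15% to 25% (144 cells) at 57.1 (39.8 to 79.4) and 1155 (1072 to 1244). The *Pcsk1* share went from 20.6% (20.05 to 21.2) through 13.3% (11.4 to 15.3) to 4.71% (3.30 to 6.49), toward the alpha-cell split. In the bands between, still inside the beta limits, it was 14.5% (11.25 to 18.3) at 0.5% to 1% *Gcg* (109 cells). It was 14.4% (11.9 to 17.2) at 1% to 3% (129 cells). The 22 cells over 25% *Gcg* held 7 *Pcsk1* UMIs and a share of 7.37% (3.01 to 14.6). No doublets were removed from the mutant libraries, and whether these barcodes are single cells was not tested. In WT, where the authors removed cells of mixed hormones, the share was 17.0% under 0.5% *Gcg* and 12.2% (8.90 to 16.2) at 3% to 8% (135 cells). Between these it was 14.7% (10.5 to 19.9) at 0.5% to 1% and 16.6% (13.9 to 19.6) at 1% to 3%.

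**Figure D5:**
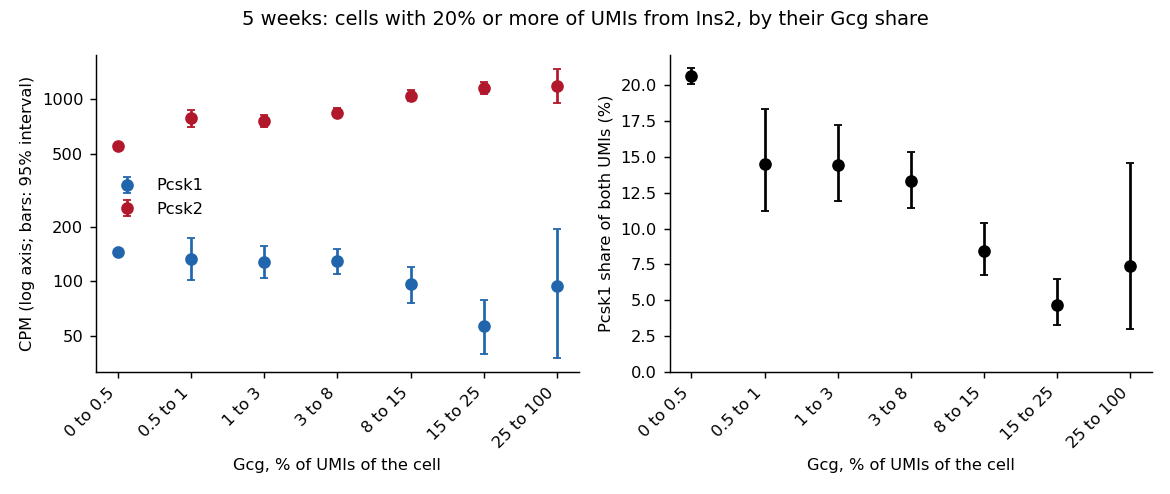
*Pcsk1* and *Pcsk2* CPM (left, log axis) and the *Pcsk1* share of both (right, percent) in 5-week cells with 20% or more of UMIs from *Ins2*, by the percent of UMIs from *Gcg*; bars are 95% counting intervals. The *Pcsk1* share goes from 20.6% in cells under 0.5% *Gcg* to 4.71% at 15% to 25%.

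By their *Ins2* share, 5-week beta cells ran from a *Pcsk1* share of 12.8% (9.89 to 16.2) at 20% to 30% *Ins2* (187 cells) to 20.1% (19.3 to 21.0) at 50% to 60% (2363 cells) and 26.9% (20.4 to 34.2) at 70% or more (94 cells). In WT the same bands from 20% to 60% *Ins2* stayed between 16.1% and 17.1%. *Sst* also fell along the 5-week bands, from 41391 CPM at 20% to 30% *Ins2* to 1560 at 50% to 60% and 153 at 70% or more. In WT it was at 1997 CPM at 20% to 30% and 152 at 50% to 60%, after the authors' removal of mixed-hormone cells. The part of cells mixed with delta-cell RNA in the 5-week course was not tested. In the 128 cells that met the beta and the delta limits together, *Pcsk1* was at 111 CPM (80.9 to 148), *Pcsk2* at 949 (857 to 1049), *Cpe* at 560 and *Pam* at 202, between the values of the 2 classes. Within the 1-week beta cells, those with *Ddit3*, a gene of the unfolded-protein response, under 500 CPM (182 cells) held *Pcsk1* at 197 CPM (185 to 209), *Pcsk2* at 1111 (1083 to 1139) and *Cpe* at 731. Those at 3000 CPM or more (140 cells) held 126 (114 to 139), 854 (822 to 887) and 1205. Hormones took 59.4% of UMIs in the former and 24.8% in the latter. Without hormone UMIs *Pcsk1* was at 486 and 167 CPM and *Pcsk2* at 2738 and 1135. Both convertases were thus lower in the 1-week cells with more *Ddit3* on both scales, while *Cpe*, at 1802 and 1603, turned from higher to lower. In the same bands at 5 weeks, the upper of 22 cells, *Pcsk2* was at 567 and 741 CPM (500 to 1058). Without hormones it was at 1706 and 1483. *Pcsk1* was at 145 and 124 CPM (40.1 to 288) there.

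A list of partners and inhibitors was set beside the enzymes, though not all of its genes act on the convertases. Of its 4 genes tested, 3 passed 2-fold in beta cells at 5 weeks, 1 higher and 2 lower, beside the 10.6% of all genes given above. *Pcsk1n* (proSAAS, an inhibitor of PC1/3) was at 1955 CPM in WT and 764 at 5 weeks, 2.56-fold lower (log2 −1.36, −1.38 to −1.33). It was also lower in alpha cells, from 10444 to 4562 CPM (log2 −1.19), and in delta cells, from 5625 to 3112 (log2 −0.85). *Scg3*, a granule protein that binds CPE, was at 236 and 567 CPM, 2.40-fold higher (log2 1.27, 1.21 to 1.32). *Tmem27*, which is also on the list of alpha markers, was at 122 and 32.6 CPM (log2 −1.90). *Scg5* (7B2, the chaperone of PC2) was at 455 and 388 CPM, with a log2 ratio of −0.23 (−0.27 to −0.19), close to the −0.27 of *Pcsk2*. At 1 week *Scg3* was higher in beta cells on both scales (log2 2.03, or 1.19 without hormones), and *Pcsk1n* lower on both (−0.51, or −1.35).

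Of the other proprotein convertases 6 of 7 had enough UMIs in beta cells at 5 weeks, with 1 higher and 1 lower: *Pcsk7* was at 7.08 CPM against 2.68 in WT (log2 1.40, 0.92 to 1.91) and *Pcsk4* at 1.22 against 5.98 (log2 −2.30, −2.91 to −1.72). Of 7 other peptidases tested, *Ctsl*, the lysosomal cathepsin L, was at 175 CPM against 84.3 (log2 1.05, 0.97 to 1.14), which fell under 2-fold without hormones (0.98), and the other 6 were within 2-fold. All 6 genes tested for the copper supply and redox partners of PAM were within 2-fold, among them *Cyb561*, which passes electrons into the granule, at 27.7 CPM against 14.3 (log2 0.95) and *Atox1*, a copper chaperone, at 61.7 against 77.1 (log2 −0.32). All 16 subunits of the granule proton pump tested were also within 2-fold, with a median log2 ratio of 0.14 beside 0.18 for all genes, *Atp6v0b* at −0.07 and *Atp6v1f* at −0.70. *Qpctl*, of amino-terminal cyclisation, was at 0.28 (−0.11 to 0.68), and *Qpct* had 4 and 7 UMIs.

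Of the substrates tested, 5 of 11 passed 2-fold in beta cells at 5 weeks, beside 10.6% of all genes. *Vgf*, a precursor cut by both convertases, was at 3.68 CPM in WT (59 UMIs) and 48.4 at 5 weeks (1353 UMIs), 13.1-fold higher (log2 3.72, 3.34 to 4.12), and at 41.0 CPM at 1 week. *Ins1* was 6.84-fold lower. *Sst* was 11.3-fold higher, at 261 and 2966 CPM, *Ppy* 3.99-fold and *Pyy* 4.51-fold. At 1 week these hormones were lower in beta cells than in WT, with log2 ratios of −2.75 for *Sst*, −1.15 for *Ppy* and −1.29 for *Pyy*. The 5-week beta cells include the 128 that also met the delta limits, which held *Sst* at 69123 CPM. Mixed-hormone cells were removed by the authors from WT only. *Sst* was also 10.7-fold higher in alpha cells at 5 weeks. The parts of mixed cells and of free RNA in these hormones were not tested. In alpha cells *Vgf* was at 30.5 CPM in WT and 38.5 at 5 weeks (log2 0.34, −0.05 to 0.74).

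The gene whose level followed *Pcsk2* most closely over the 9 combinations of library and class was *Scg5* (Pearson r 0.99 of log2 CPM with 10 added, among 10984 genes), followed by *Mgmt* (0.98) and *Trim35* (0.97). For *Pcsk1* they were *Gng12* (0.98), *Derl2* and *Adra2a* (0.97 each), for *Cpe* *Rpl29*, *Zfand2b* and *Rpl28* (all 0.99), and for *Pam* *Uqcrh* (0.99) and *Usp29* (0.98). *Pcsk1* ran against the other 3, with r of −0.86 to *Pcsk2*, −0.74 to *Cpe* and −0.68 to *Pam*, while *Pcsk2*, *Cpe* and *Pam* had r of 0.80 to 0.87 among themselves. The 9 points share 3 libraries, their depth and their hormone shares, so these are descriptions.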

How the data were processed

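The authors deposited UMI counts for each gene in each barcode, not normalized, from islets kept in culture for 24 h, dissociated and sorted for live cells, on the 10X Genomics Chromium 3′ assay. Per the submitters' processing notes bcl2fastq 2.17.1.14, Cell Ranger 3.1 and Seurat 3.1.4 were used, with build mm10 (GRCm38). Only WT cells went through a removal of doublets and mixed-hormone cells by the authors, who also cut that library to 12000 cells. The tables hold 12000, 2295 and 11229 barcodes with 19472212, 23131247 and 39408284 UMIs for WT, 1 week and 5 weeks.

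All barcodes were used and no doublets were removed here. UMIs were summed per class by the hormone limits given above. Levels have exact Poisson intervals, shares Clopper-Pearson intervals and ratios exact conditional intervals, at 95% and for counting error only. A gene was called at 2-fold (log2 ratio of 1 or more either way) with at least 100 UMIs over both libraries, and counts under 3 were set to 3. Intervals and calls were run on counts simulated with counting error only. This checks the computation and not the spread between animals or libraries. The members and gene lists were chosen with earlier results of these data known. Genes named beside the 4 enzymes are those of the lists past 2-fold in beta cells at 5 weeks, or otherwise the 2 with most UMIs of a list, and *Scg5*, *Ddit3* and *Xist* with *Ddx3y* were named after their values were seen. One gene among those most like the enzymes is not reported here. Lists of alpha, beta and delta markers and of acinar, endothelial and macrophage genes served as checks: macrophage genes summed to 10.6 to 124 CPM and endothelial genes to 4.93 to 71.7 CPM in any class. Promoter windows and gene positions are those of RefSeq for GRCm38.p6, and motifs were searched on both strands. Python 3.11.15 was used with numpy 2.4.6, scipy 1.17.1, pandas 2.3.3 and matplotlib 3.10.9.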

Additional observations from a re-analysis of the deposited data

Results flagged for a closer look

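*Pcsk1* at 1 week over WT was above 0 in beta cells (log2 ratio 0.23, 0.15 to 0.31) and below 0 in alpha cells (−2.29, −3.90 to −0.91), in opposite directions with intervals for counting error that exclude 0. The difference between the classes was not tested, since each rests on 1 library per condition, and the beta-cell value was −0.61 without hormone UMIs. The alpha-cell value rests on 6 and 19 UMIs.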

How the results depend on the processing

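No paired analysis was possible because each condition has 1 library. The number of enzymes past 2-fold among those with enough UMIs was the same in 56 of 58 recomputed counts. Both exceptions were at 1 week and gave 1 in place of 0: cells thinned to 1000 UMIs in delta cells (*Pcsk2*, log2 1.19), and no minimum of UMIs in alpha cells (*Pcsk1*, −2.29). Beta-cell RNA taken off, a setting chosen after seeing the data, changed no count. The *Pcsk1* ratio in alpha cells at 1 week turned from −2.29 to 0.11 in thinned cells, where few UMIs were left, and ranged down to −2.92. In beta cells at 5 weeks *Cpe* ranged from −0.75 to −0.48, *Pam* from −0.62 to −0.22, *Pcsk2* from −0.44 to −0.18 and *Pcsk1* from −0.13 to 0.15 over 9 settings, and *Pam* in alpha cells from −0.85 to −0.61 over 10. All 4 beta-cell ratios at 1 week were below 0 without hormones and centred on the median gene. The settings also included stricter limits, cells of 1 class only, the mean of cell CPM, barcodes of 2000 or 10000 UMIs up at 1 week, 1000 to 5000 UMIs at 5 weeks, no minimum of UMIs, and 200 to 1500 genes with under 15% mitochondrial UMIs, which left too few cells at 1 week. Counts of 24 or fewer UMIs, as of *Pcsk1* in alpha and delta cells of WT and 1 week, limit those values.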
